A study of Arabidopsis thaliana with 12 samples.

Results

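Whole Arabidopsis thaliana seedlings that met heat for the first time were set against seedlings of the same age that met none. The priming group held 3 libraries from 6-day-old seedlings after 30 min at 38 °C, and the control group held 3 libraries from 6-day-old seedlings without heat. These 6 of the 12 libraries of the series were chosen by their labels. Both groups were wild type, accession Col-0, grown in shaken liquid culture in mineral water, and the heat was given in a water bath in the light. The group labels give 30 min at 38 °C, whereas the general protocol gives 2 h for the first heat. Each replicate number stands for 1 harvest date shared by both groups. The labels do not state whether replicates were grown apart, so the p-values refer to differences among these libraries, which may be technical. The other 6 libraries came from 7-day-old seedlings heated to 43 °C for 30 min, and in 3 of them a first heat at 38 °C for 2 h and 22 h of recovery at 21 °C came before. These 6 entered the fit, where they bear on the spread, the scaling factors and which sequences were tested, and no value of theirs is reported.

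Heat that a plant can survive activates heat shock transcription factors, which bind paired GAA blocks near a gene's start and induce chaperones, proteins that keep other proteins folded. Under such heat plants also make less of many other transcripts, change how transcripts are spliced and translated, and store or degrade a part of those already made. The chaperones are the best-known targets, and the classes of transcripts around them are described here. They cover sugars and vitamins, splicing, protein turnover, photosynthesis, hormones, cell walls, surface barriers, defence and nutrient uptake.

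The libraries were made from total RNA depleted of ribosomal RNA, so plastid and mitochondrial transcripts were counted beside nuclear ones. Aligned reads numbered 72075150 to 126358753 in priming libraries and 106525697 to 152118790 in control libraries. Remaining ribosomal RNA, 0.542% to 0.920% of aligned reads, was left out. Aligned shares were 84.5% to 87.5% of reads in priming and 88.2% to 88.7% in control, and the part of this gap in the results was not tested. Control replicate 3 stood apart for a set of suberin-related transcripts, given beside those results. All 8 marker lists for seedling tissues were detected with no member at 0, among them mesophyll, whose 8 markers summed to 8608 to 10668 counts per 1000000 (CPM of library totals) in priming and 11827 to 12167 CPM in control. In whole seedlings, fewer cells of a type and less RNA per cell cannot be told apart.

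Each value below is a share of a library and not an amount per seedling, so a transcript can lose share because others gained it. Changes were tested on 2 scales. The library-total scale sets a transcript against all counts without ribosomal RNA. The TMM scale, from the trimmed mean of M-values, sets it against the typical transcript, and it lay 0.86 log2 units above the library-total scale for the typical sequence. "Rose" and "fell" mean an adjusted p under 0.05 in edgeR's quasi-likelihood test on the TMM scale, and CPM of single genes are TMM-scaled unless stated.

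Heat chaperones took most of the reads that moved. The 62 listed loci of small heat shock proteins, HSP70, HSP90, HSP101 and their partners held 11.9%, 14.3% and 12.8% of counts in the priming libraries, against 0.670%, 0.616% and 0.728% in the control libraries. The difference was 12.3 percentage points. The groups did not overlap, and the exact two-sided permutation test gave p = 0.1, the smallest that 3 against 3 libraries allow (adjusted p = 0.15 over the 9 classes of sequence). HSP101 (AT1G74310), the disaggregase that pulls proteins out of aggregates, held 1.55% ± 0.159 of counts in priming and 0.00514% ± 0.000176 in control (SD, n = 3 each). BAG6 (AT2G46240), a co-chaperone, held 0.992% ± 0.0227 in priming and 0.00205% ± 0.000346 in control (SD, n = 3 each). The list does not hold every relative, and Hsp70-15 (AT1G79920), an HSP70 family protein counted here with the other nuclear loci, held 0.242% ± 0.0136 in priming and 0.0157% ± 0.00205 in control (SD, n = 3 each), with 24.9% of its 31-base words shared with other sequences.

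By group means, the largest gain of any single locus was that of plastid-encoded psbA. The psbA transcript (ATCG00020), which encodes D1, a photosystem II core protein that light damages and that is constantly replaced, held 31.1%, 27.1% and 30.6% of counts in priming and 28.6%, 25.8% and 21.9% in control. It was higher in priming on all 3 dates, by 2.55, 1.27 and 8.73 points, but priming replicate 2 lay below control replicate 1, and the exact two-sided permutation p was 0.2. The mean gain of 4.18 points was 2.43 without control replicate 3, and on the second date HSP101, at 1.71% in priming and 0.00501% in control, gained more than psbA did. The other plastid loci held 14.5% ± 1.52 in priming and 13.6% ± 0.325 in control (SD, n = 3 each; exact two-sided permutation p = 0.5). The large Rubisco subunit transcript rbcL (ATCG00490) was within this spread, at 6.06% ± 0.976 in priming and 5.62% ± 0.187 in control (SD, n = 3 each). Mitochondrial loci held 1.78% ± 0.0894 in priming and 1.60% ± 0.0495 in control, without overlap (SD, n = 3 each; exact two-sided permutation p = 0.1).

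Nuclear loci outside the chaperones, without the 132 whose sequence matches an organelle genome, gave up 17.6 points. They held 36.2%, 41.7% and 37.8% of counts in priming and 53.0%, 55.9% and 59.7% in control, without overlap (exact two-sided permutation p = 0.1). The loss was 16.8, 14.2 and 21.9 points on the 3 dates. Within these loci, 2841 gained 4.05 points together and 23181 lost 21.7 points together. The gains were concentrated, with 3.35 points in the 100 largest gainers, whereas the 100 largest losers gave 2.96 points. Noncoding entries held 1.12% ± 0.245 in priming and 1.15% ± 0.363 in control (SD, n = 3 each; exact two-sided permutation p = 1).

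**Figure D1:**
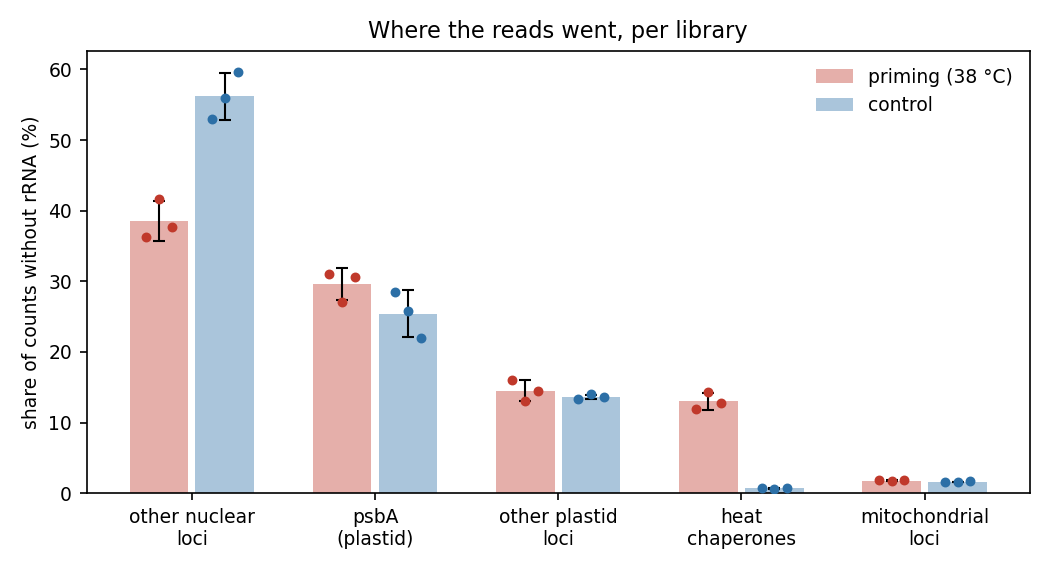
Share of counts without ribosomal RNA, in percent, held by 5 classes of sequence in priming (red, left of each pair) and control (blue). Bars are means of 3 libraries, lines are SD, points are libraries; heat chaperones sit at 11.9% to 14.3% in priming and under 0.73% in control, and other nuclear loci are lower in all 3 priming libraries.

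The median nuclear transcript lost share to a degree that the sum of nuclear counts does not show. Nuclear loci together held 52.9% ± 3.95 of counts in priming and 58.0% ± 3.39 in control (SD, n = 3 each; exact two-sided permutation p = 0.2), a log2 ratio of -0.13. The median over the 22935 tested nuclear loci with counts in both groups was a log2 ratio of -0.87 in share of counts. It was -0.95, -0.72 and -0.93 on the 3 dates. Of these loci, 21000 (91.6%) had a lower share in priming, 43.0% were lower by more than 1 log2 unit and 3.22% were higher by more than 1. The middle 50% of loci lay between -1.40 and -0.44. The median tested nuclear locus had 3.33, 4.30 and 3.92 CPM of library totals in priming, against 6.89, 7.49 and 8.02 CPM in control, without overlap.

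How large this loss is depends on what a transcript is set against. With nuclear counts alone as the total the median was -0.74, and with nuclear counts without the chaperones it was -0.35. Leaving psbA out of the total gave -0.79. Nuclear counts were spread over fewer loci. The most abundant loci that hold 50% of nuclear counts numbered 260, 318 and 320 in priming and 1309, 1398 and 1407 in control. Without the chaperones these numbers were 684, 881 and 875 in priming and 1324, 1408 and 1422 in control, which did not overlap either. The 100 most abundant loci held 37.7% ± 0.844 of nuclear counts in priming and 16.5% ± 0.724 in control (SD, n = 3 each). Nuclear loci with at least 1 count numbered 23594 ± 407 in priming and 24440 ± 187 in control (SD, n = 3 each). Depth overlapped between the groups. Priming replicate 2 had 24061 such loci from 71779858 nuclear counts, and control replicate 1 had 24226 from 57944118.

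The loss differed with the build of the gene. Protein-coding loci outside the chaperones with 1 exon had a median log2 ratio of -1.33 in share of counts (3963 loci), those with 2 exons -0.99 (3455 loci), those with 3 to 5 exons -0.82 (6258 loci), those with 6 to 10 exons -0.74 (5279 loci) and those with over 10 exons -0.76 (3243 loci). Among loci of 5 to 100 CPM in control the median was again -1.33 for 1 exon (1567 loci) and -0.79 for 2 or more (10873 loci). Loci whose reference sequence was under 1000 bases had a median of -0.64, and those of 3000 bases and over -1.09. By level in control, the median was -0.91 under 1 CPM, -0.95 at 1 to 5 CPM, -0.86 at 5 to 20 CPM, -0.83 at 20 to 100 CPM and -0.66 at 100 CPM and over. These medians describe loci, which are not replicates, and exon number and length were not separated from each other.

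**Figure D2:**
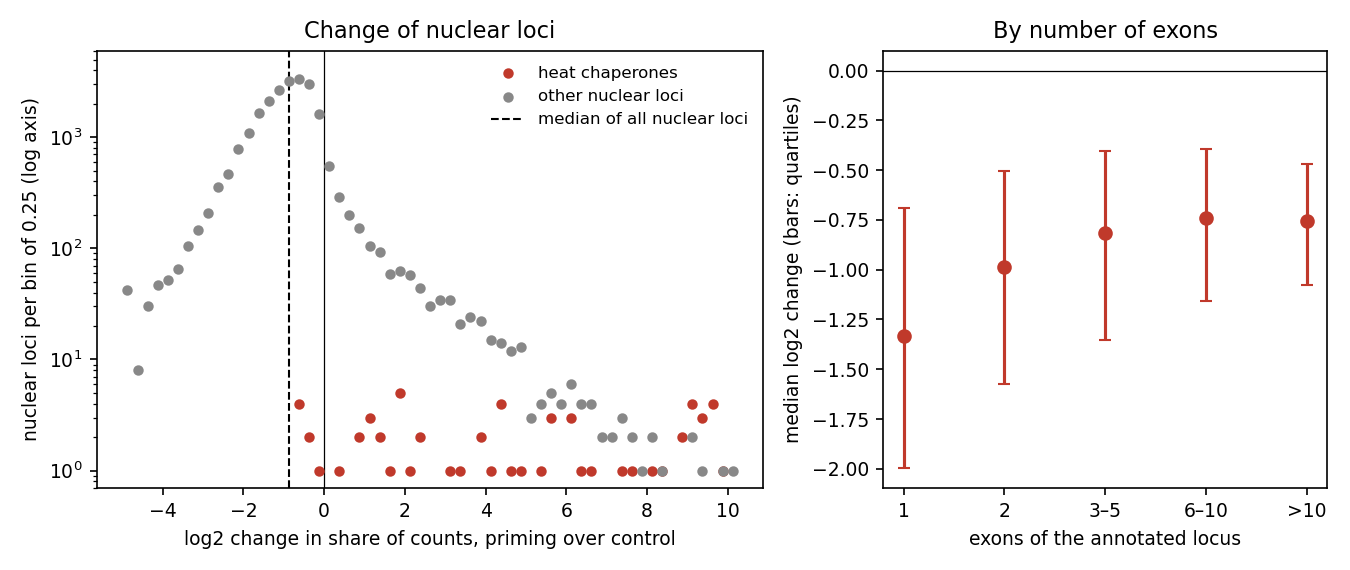
Left, number of nuclear loci (log axis) by log2 change in share of counts, priming over control, in bins of 0.25, each point giving the loci of one bin, with heat chaperones in red, other nuclear loci in grey, empty bins not drawn and values past the ends of the binned range in the end bins; the dashed line marks the median of -0.87. Right, median log2 change (points) and quartiles (bars) of protein-coding loci outside the chaperones by number of exons; loci with 1 exon are lowest at -1.33.

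On the library-total scale, 961 of 23383 tested nuclear loci rose (4.11%) and 16898 fell (72.3%) in edgeR's quasi-likelihood test. On the TMM scale 6427 rose (27.5%) and 6458 fell (27.6%), with a median of -0.01. Over all 26161 sequences tested the TMM shares were 26.7% rising and 27.1% falling, and the library-total shares were 4.76% and 69.3%. Counts over gene groups are read against these shares, and most are followed by their library-total count. They cover the members that passed the filter on low counts: 548 of 564 in the 31 class lists, where the glucosinolate list lost most with 17 of 25 passing, and 3877 of 4775 memberships, held by 4772 loci, in the 41 families. Among organelle loci, 120 of 123 mitochondrial ones rose and 0 fell, and 52 rose and 0 fell on library totals. Of 90 plastid loci 68 rose and 0 fell, but on library totals 5 rose and 44 fell. Transposon entries fell in 396 of 1492 cases and rose in 218, and microRNA precursors fell in 12 of 45 and rose in 6.

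Galactinol and raffinose synthesis held the largest gain among the functional classes. These sugars protect membranes and proteins and scavenge hydroxyl radicals. The 8 listed loci held 0.264% ± 0.0378 of counts in priming and 0.0454% ± 0.00255 in control (SD, n = 3 each). GolS1 (AT2G47180, galactinol synthase, chromosome 2, 19368798 to 19370478, minus strand, 4 exons, build TAIR10.1), the enzyme that opens the pathway, had 2929, 3223 and 2990.4 CPM in priming and 26.8, 24.1 and 25.9 CPM in control. The groups were far apart and the libraries close within each, at log2 6.89 ± 0.16 (SE; edgeR adjusted p = 2.83e-14). GolS2 (AT1G56600) had 117, 103 and 89.7 CPM in priming and 27.5, 27.2 and 32.9 CPM in control (log2 1.82 ± 0.15 SE). Of the 8 loci 5 rose and 0 fell, and on library totals 2 rose and 2 fell. The list gained 0.219 points and GolS1 alone 0.223 points, so the other members together did not gain share.

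Vitamin B6 synthesis came next, also through 1 gene. PDX1.2 (AT3G16050), a catalytically inactive subunit that associates with the active PDX1 enzymes, had 2034, 1754 and 1809 CPM in priming and 7.46, 5.97 and 7.15 CPM in control. The 3 priming libraries were all above 1700 CPM and the 3 control libraries below 8 (log2 8.09 ± 0.21 SE; edgeR adjusted p = 9.06e-14). Of the 6 listed loci 5 rose and 0 fell, and on library totals 1 rose and 2 fell.

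The other nuclear transcripts with the largest gains in share had varied roles. MBF1C (AT3G24500), a transcriptional coactivator needed for basal heat tolerance, had 3722, 3421 and 2887 CPM in priming and 42.2, 28.2 and 35.0 CPM in control. ELIP1 (AT3G22840), an early light-induced protein that binds chlorophyll in stressed chloroplasts, had 1906, 1932 and 1631 CPM in priming and 253, 165 and 116 CPM in control. Neither pair of groups overlapped, with log2 6.57 ± 0.20 for MBF1C and 3.36 ± 0.25 for ELIP1 (SE). AT2G19310, annotated by RefSeq as HSP20-like and outside the chaperone list, averaged 1692 ± 140.1 CPM in priming and 42.2 ± 6.97 CPM in control (SD, n = 3 each). AT1G30070, with an SGS domain, averaged 1297 ± 73.4 CPM in priming and 10.1 ± 0.971 CPM in control (SD, n = 3 each). AT3G07090, a putative thiol peptidase of the PPPDE family, averaged 1225 ± 137 CPM in priming and 35.0 ± 3.45 CPM in control (SD, n = 3 each). AT1G67360, a rubber elongation factor family protein, averaged 1255 ± 106 CPM in priming and 61.3 ± 10.5 CPM in control (SD, n = 3 each).

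Outside all lists, increases were ranked only for genes that have a name and reached 5 CPM. Unnamed or scarcer loci were left out of this order, and some of them can have risen more. First in the order was HSFA2 (AT2G26150), a heat shock transcription factor (log2 10.15 ± 0.20 SE). It had 1505, 1644 and 1657 CPM in priming and 1.35, 1.37 and 1.49 CPM in control. AT-HSFA7B (AT3G63350), a factor of the same family, followed with 170, 183 and 157 CPM in priming and 0.242, 0.263 and 0.307 CPM in control (log2 9.28 ± 0.16 SE). The rest of the 20 largest increases had varied roles, and some of them are given here. APX2 (AT3G09640), a cytosolic ascorbate peroxidase that removes hydrogen peroxide, had 33.7, 38.5 and 41.9 CPM in priming and 0.0605, 0.0487 and 0.173 CPM in control. FTSH6 (AT5G15250), a thylakoid protease, averaged 17.9 ± 1.32 CPM in priming and 0.168 ± 0.0481 CPM in control (SD, n = 3 each). DREB2A (AT5G05410), a transcription factor of drought and heat responses, had 595, 525 and 472 CPM in priming and 15.3, 13.0 and 15.0 CPM in control. In each of these 3 genes every priming library was above every control library, and the log2 changes were 8.63 ± 0.29, 6.72 ± 0.17 and 5.20 ± 0.16 (SE). NAC019 (AT1G52890), a transcription factor of abscisic acid responses, averaged 57.6 ± 5.85 CPM in priming and 1.18 ± 0.0726 CPM in control (SD, n = 3 each). CNGC7 (AT1G15990), a cyclic nucleotide-gated ion channel, averaged 10.4 ± 1.30 CPM in priming and 0.225 ± 0.0647 CPM in control (SD, n = 3 each). CML37 (AT5G42380), a calmodulin-like calcium sensor, averaged 12.4 ± 1.39 CPM in priming and 0.394 ± 0.168 CPM in control (SD, n = 3 each). EDL3 (AT3G63060), an F-box protein of abscisic acid signalling, averaged 15.1 ± 2.96 CPM in priming and 0.0960 ± 0.0223 CPM in control (SD, n = 3 each). FBS1 (AT1G61340), an F-box protein induced by stress, averaged 134 ± 3.96 CPM in priming and 3.95 ± 1.32 CPM in control (SD, n = 3 each).

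The 250 bases before the gene start were read from the RefSeq genome (TAIR10.1) because heat shock factors bind paired GAA blocks there. The 8-base element TTCNNGAA, which reads the same on both strands, stood in 1694 of 22260 tested protein-coding loci (7.61%). The 13-base form GAANNTTCNNGAA, searched on both strands, adds 1 more block and always contains the shorter form; it stood in 91 loci (0.409%). Of 62 heat chaperones 10 held the shorter form (16.1%). Outside the chaperones the shorter form stood in 12.8% of the 227 loci with a log2 change of 4 and over, in 11.1% of the 440 loci at 2 to 4, and in 7.09% of the 635 loci under -2. The longer form stood in 3.52%, 1.59% and 0.315% of the same groups. Loci outside the list still include chaperone relatives, such as AT2G19310 and Hsp70-15, which held neither form. They also include heat shock factors, such as HSFA2 and AT-HSFA7B, which held both. A match is a description of letters and not a binding site, and most loci of the highest group held neither form. The opposite order of blocks, GAANNTTC, was not searched by itself, so loci without a match can still hold paired blocks.

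Of the 28 loci named for the largest gains of share or the largest increases, 10 held the shorter element. AT-HSFA7B and HSFA7A (AT3G51910), both heat shock factors, held it outside any neighbouring gene, with the longer form, and are not printed. The windows of 6 others outside any neighbouring gene are printed below 5′ to 3′ on the gene's strand, with the element in capitals. They were picked to show that genes of different function carry it and how its 2 central bases vary.
GolS1, chr2:19370551-19370598, minus strand, galactinol synthase: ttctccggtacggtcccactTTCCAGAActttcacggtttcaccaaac
AT3G07090, chr3:2244924-2244971, minus strand, putative peptidase: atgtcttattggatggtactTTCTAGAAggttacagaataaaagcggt
APX2, chr3:2955988-2956035, plus strand, ascorbate peroxidase: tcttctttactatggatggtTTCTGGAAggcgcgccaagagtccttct
HSFA2, chr2:11135521-11135568, plus strand, heat shock factor: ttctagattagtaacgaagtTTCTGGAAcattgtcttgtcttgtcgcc
DREB2A, chr5:1602021-1602068, plus strand, drought and heat factor: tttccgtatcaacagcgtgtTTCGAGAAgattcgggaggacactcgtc
DIP2, chr5:763481-763518, minus strand, E3 ubiquitin-protein ligase: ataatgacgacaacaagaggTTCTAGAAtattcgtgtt
In GolS1, HSFA2, DREB2A and DIP2 the additional block of the longer form was present, and in AT3G07090 and APX2 it was not. The element ended 92, 115, 140, 75, 156 and 10 bases before the gene start, in the order printed.

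**Figure D3:**
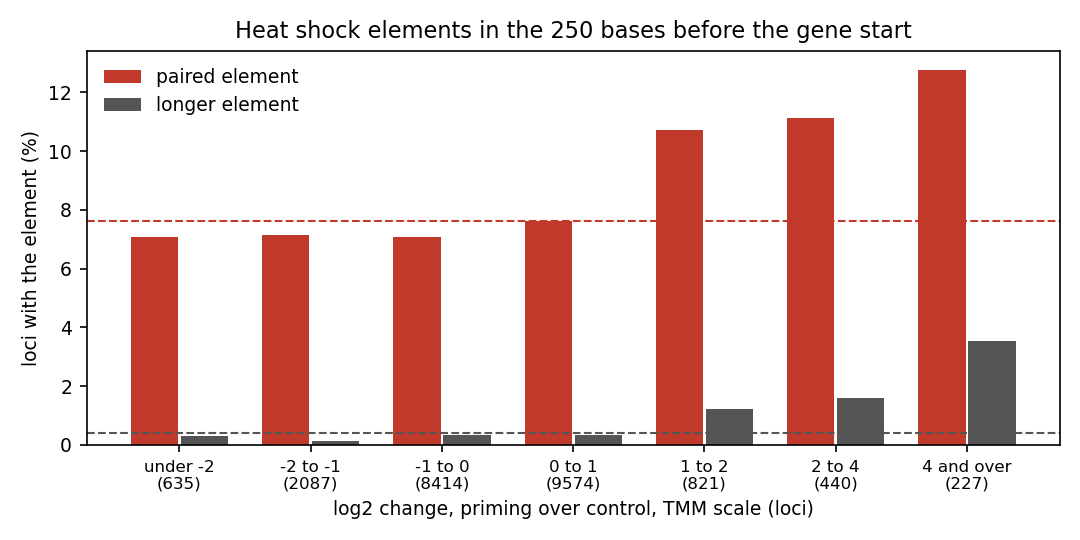
Percent of tested protein-coding loci outside the chaperones whose 250 bases before the gene start hold the 8-base element (red) or its 13-base form (grey), by log2 change of priming over control on the TMM scale, with the number of loci in brackets. Dashed lines give the share of all tested protein-coding loci; the bars for changes of 4 and over stand at 12.8% and 3.52%.

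Splicing factors of 1 class rose in most cases. Serine/arginine-rich (SR) proteins bind transcripts and steer which splice sites are used. Of 20 SR loci 17 rose and 0 fell (median log2 0.75, against -0.01 for all nuclear loci), and on library totals 4 rose and 4 fell. SR45a (AT1G07350) had 763, 945 and 837 CPM in priming and 26.3, 28.6 and 22.2 CPM in control. SR30 (AT1G09140) had 175, 176 and 162 CPM in priming and 26.5, 30.6 and 30.4 CPM in control. The groups of both genes were separate, at log2 5.04 ± 0.14 and 2.55 ± 0.10 (SE), and both also rose on library totals. SCL33 (AT1G55310) rose by log2 1.99 ± 0.10 and SR34b (AT4G02430) by 1.78 ± 0.10 (SE). Of 36 small nuclear ribonucleoprotein loci, parts of the spliceosome, 20 rose and 1 fell, and on library totals 0 rose and 18 fell. Of 124 loci with an RNA recognition motif 51 rose and 15 fell, and on library totals 10 rose and 79 fell. In the list of mRNA decay and storage granules 4 of 16 rose and 3 fell, a rising share under that of all nuclear loci, and 2 rose without control replicate 2. On library totals 0 rose and 14 fell. UBP1B (AT1G17370), a stress granule protein, rose by log2 0.91 ± 0.10 (SE), but not on library totals.

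Families of protein turnover and redox chemistry differed in direction. Loci of the proteasome, of glutathione S-transferases, of thioredoxins and of autophagy rose more often than they fell, whereas ubiquitin ligases and class III peroxidases fell more often than they rose. Of 44 proteasome loci 40 rose and 1 fell (median log2 0.54), and on library totals 1 rose and 21 fell. Their summed share was 0.120% ± 0.0122 of counts in priming and 0.146% ± 0.0136 in control (SD, n = 3 each). FUS5 (AT1G02090), a subunit of the related COP9 signalosome that the product text places here, had 70.2, 71.4 and 73.6 CPM in priming and 12.3, 11.3 and 12.7 CPM in control (log2 2.57 ± 0.08 SE). Of 52 glutathione S-transferases, which conjugate reactive compounds to glutathione, 29 rose and 2 fell (median 0.55), and on library totals 6 rose and 22 fell. GSTU5 (AT2G29450) had 594, 658 and 545 CPM in priming and 44.7, 39.5 and 40.1 CPM in control. GSTF8 (AT2G47730) had 850.4, 861 and 788 CPM in priming and 247, 211 and 179 CPM in control. Their groups were apart, at log2 3.85 ± 0.13 and 1.97 ± 0.12 (SE), and the family's summed share was 0.214% ± 0.0201 in priming and 0.137% ± 0.00403 in control (SD, n = 3 each). Of 92 thioredoxin superfamily loci 52 rose and 3 fell, and on library totals 8 rose and 42 fell. TPX1 (AT1G65980), a peroxiredoxin, rose by log2 1.71 ± 0.10 (SE). Of 15 autophagy loci 10 rose and 3 fell, and on library totals 0 rose and 11 fell. ATG8B (AT4G04620), which decorates autophagosomes, rose by log2 1.02 ± 0.11 (SE), but not on library totals. Of 261 RING and U-box ligases, which attach ubiquitin to proteins, 109 fell and 41 rose, and on library totals 212 fell and 11 rose. Of 313 F-box proteins, which pick targets for ubiquitin ligases, 98 fell and 39 rose, with 24 rising when only the priming and control libraries were fitted, and on library totals 201 fell and 21 rose. Of 67 class III peroxidases, secreted enzymes that act in cell walls, 32 fell and 4 rose, with 2 rising without priming replicate 1 or control replicate 3, and on library totals 55 fell and 2 rose.

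Loci of the translation machinery rose more often than they fell on the TMM scale. Of 361 ribosomal protein loci 250 rose and 8 fell on the TMM scale, but on library totals 3 rose and 199 fell, and their summed share was 0.992% ± 0.106 in priming and 1.26% ± 0.158 in control (SD, n = 3 each). Of 56 aminoacyl-tRNA synthetases 30 rose and 6 fell, and 3 fell when only the priming and control libraries were fitted. Their summed share was 0.193% ± 0.0208 in priming and 0.172% ± 0.0109 in control (SD, n = 3 each), and on library totals 1 rose and 37 fell.

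By median log2 change, transcripts for chloroplast metabolism lost less than the typical transcript. Of 20 Calvin cycle loci, which fix carbon dioxide, 16 rose and 0 fell (median log2 0.70), and on library totals 0 rose and 8 fell. SBPASE (AT3G55800) had 325, 245 and 250.2 CPM in priming and 148, 142 and 125 CPM in control, highest in priming replicate 1. It rose by log2 0.98 ± 0.11 (SE), but on library totals the change was 0.11. Of 28 chlorophyll loci 23 rose and 1 fell, and on library totals 1 rose and 17 fell. The one that fell was CH1 (AT1G44446), which makes chlorophyll b, with 43.7, 47.0 and 47.6 CPM in priming and 86.0, 89.1 and 83.0 CPM in control (log2 -0.90 ± 0.08 SE). AT4G11910, listed with chlorophyll breakdown, rose by log2 1.55 ± 0.14 (SE). Of 16 carotenoid loci 8 rose and 1 fell, with 2 falling without control replicate 3, and on library totals 0 rose and 11 fell. The largest change there was in NCED3 (AT3G14440), the enzyme that commits carotenoids to abscisic acid, with 42.7, 42.7 and 38.7 CPM in priming and 11.5, 7.63 and 22.8 CPM in control. The control libraries were uneven, the groups did not overlap, and the rise of log2 1.57 ± 0.39 (SE) was not called on library totals.

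Starch and membrane lipid genes rose in part. Of 20 starch and sucrose loci 9 rose and 2 fell, and 1 fell without control replicate 3 or without priming replicate 3. BAM1 (AT3G23920, beta-amylase), which releases maltose from starch in stress, had 380.3, 316 and 275 CPM in priming and 75.1, 75.1 and 85.7 CPM in control (log2 2.04 ± 0.12 SE). Of 14 membrane lipid loci 8 rose and 0 fell, and 1 fell without control replicate 3. DGD2 (AT4G00550), which makes the galactolipid digalactosyldiacylglycerol, had 50.2, 47.1 and 44.5 CPM in priming and 15.0, 14.2 and 13.5 CPM in control (log2 1.73 ± 0.08 SE). DGD1 (AT3G11670), its housekeeping relative, rose by log2 1.07 ± 0.09 (SE), but not on library totals. On library totals 1 starch locus rose and 14 fell, and 1 membrane lipid locus rose and 9 fell.

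**Figure D4:**
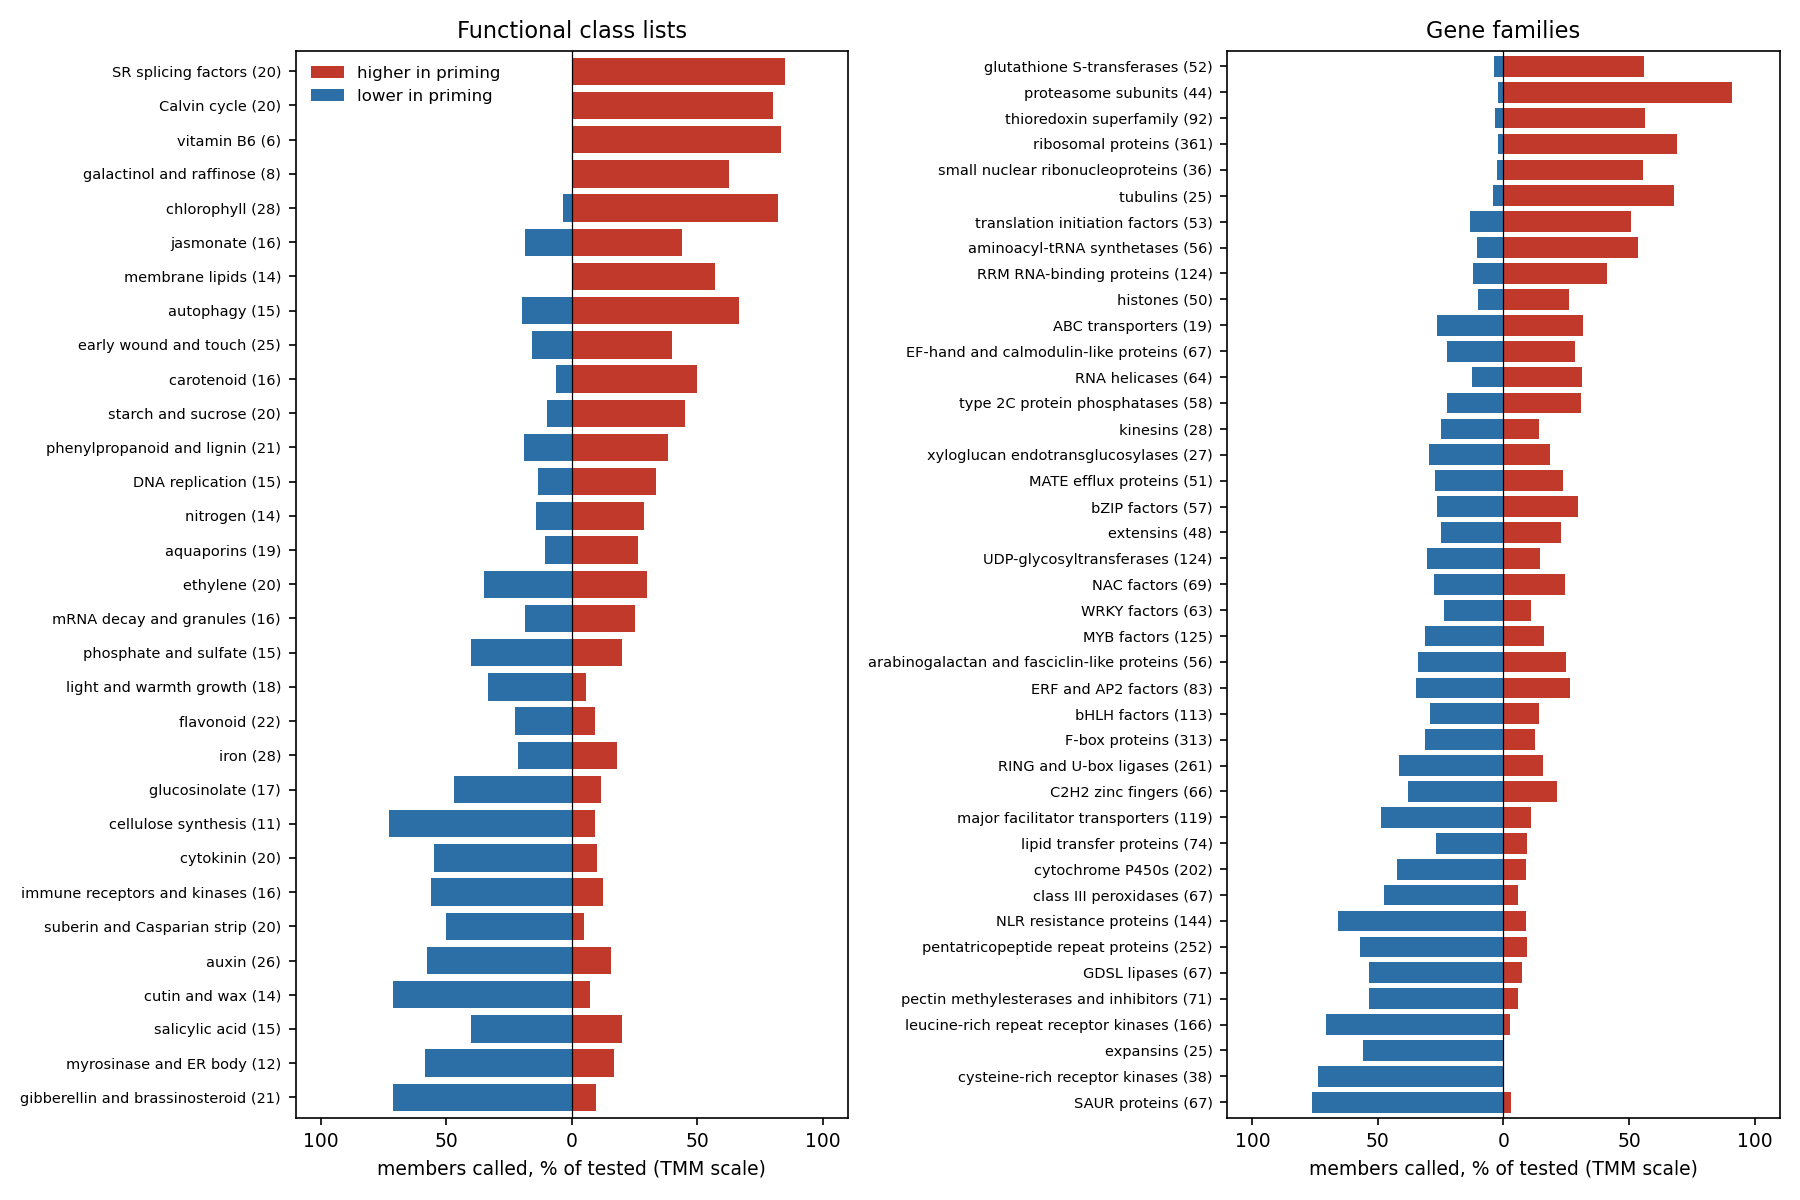
Percent of tested members that rose (red, right of 0) or fell (blue, left of 0) in priming against control on the TMM scale, for 31 functional class lists (left) and 41 gene families (right), with tested members in brackets. All nuclear loci stand at 27.5% rising and 27.6% falling; SR proteins, the Calvin cycle and proteasome subunits lie mostly right, and SAUR proteins and receptor kinases mostly left.

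In the lists of growth hormones more members fell than rose. Auxin drives cell elongation, and of 26 auxin loci 15 fell and 4 rose (median log2 -0.60), with 22 falling and 0 rising on library totals. YUC8 (AT4G28720), which makes auxin, had 2.22, 2.35 and 2.19 CPM in priming and 11.7, 13.9 and 15.8 CPM in control. PIN3 (AT1G70940), an auxin exporter, had 22.8, 27.2 and 25.5 CPM in priming and 56.0, 71.1 and 75.0 CPM in control. Both were lower in every priming library, at log2 -2.61 ± 0.15 and -1.42 ± 0.11 (SE), and PIN7 (AT1G23080) fell by 1.19 ± 0.18 on the log2 scale (SE). Of 67 SAUR loci, short auxin-induced proteins of cell expansion, 51 fell and 2 rose (median log2 -1.79), the lowest median of the 41 families. On library totals 61 fell and 2 rose. SAUR36 (AT2G45210) had 4.97, 4.34 and 4.28 CPM in priming and 21.8, 19.9 and 17.2 CPM in control (log2 -2.12 ± 0.11 SE). Among the 2 that rose was AT4G12410, with 7.24, 7.18 and 7.13 CPM in priming and 0.264, 0.423 and 0.585 CPM in control (log2 4.06 ± 0.28 SE). Of the SAUR loci 92.5% have 1 exon, the build that lost most among all loci, and the part of this in the family's fall was not tested.

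Gibberellin and brassinosteroid loci fell in 15 of 21 cases and rose in 2 (median -0.79), and 1 rose without priming replicate 2 or 3 or control replicate 1 or 2. On library totals 20 fell and 1 rose. The members moved apart, since GA3OX1 (AT1G15550), the last step of gibberellin synthesis, had 15.2, 17.7 and 16.1 CPM in priming and 2.58, 2.37 and 3.57 CPM in control (log2 2.53 ± 0.15 SE). RGL1 (AT1G66350), a DELLA repressor of gibberellin responses, had 2.76, 2.12 and 2.17 CPM in priming and 7.41, 7.23 and 8.84 CPM in control (log2 -1.74 ± 0.16 SE). Of 20 cytokinin loci 11 fell and 2 rose, and 1 rose without priming replicate 1 or 3 or control replicate 3, while on library totals 17 fell and 0 rose. CRF5 (AT2G46310), a cytokinin response factor, fell by 2.04 ± 0.19 on the log2 scale (SE). Among 18 loci of light and warmth signalling 6 fell and 1 rose. Without priming replicate 1 only 3 fell, and without priming replicate 3 or control replicate 1 the rising ones were 3 and 2. On library totals 15 fell and 0 rose. PHYB (AT2G18790), the red-light receptor that also senses temperature, had 24.3, 29.6 and 30.2 CPM in priming and 55.4, 57.5 and 57.9 CPM in control (log2 -1.02 ± 0.11 SE).

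Ethylene and jasmonate lists did not lean that way. Of 20 ethylene loci 6 rose and 7 fell, and on library totals 2 rose and 14 fell. ACS7 (AT4G26200), which makes the ethylene precursor, had 198, 154 and 146 CPM in priming and 13.9, 11.0 and 12.4 CPM in control. ACS6 (AT4G11280), a second such enzyme, had 166, 124 and 145 CPM in priming and 39.7, 32.2 and 44.2 CPM in control. Both were separate between groups, at log2 3.74 ± 0.19 and 1.90 ± 0.32 (SE), while the receptor gene EIN4 (AT3G04580) fell by 1.05 ± 0.09 (SE). Of 16 jasmonate loci 7 rose and 3 fell, and on library totals 0 rose and 7 fell. JAZ10 (AT5G13220), a repressor of jasmonate responses, rose by log2 1.24 ± 0.25 (SE), but not on library totals.

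Transcripts for cellulose and for expansins fell more often than they rose, and other wall families were mixed. Of 11 loci of cellulose synthesis 8 fell and 1 rose (median log2 -0.34), and on library totals all 11 fell; their summed share was 0.114% ± 0.0117 in priming and 0.234% ± 0.0155 in control (SD, n = 3 each). COB (AT5G60920), which orients cellulose microfibrils, had 52.7, 58.2 and 55.2 CPM in priming and 105, 99.1 and 89.5 CPM in control. CESA5 (AT5G09870), a subunit of the synthase, fell by 0.46 ± 0.09 and CSI1 (AT2G22125), which ties the synthase to microtubules, by 0.51 ± 0.09 on the log2 scale (SE). Of 25 expansins, which loosen walls, 14 fell and 0 rose, and on library totals all 25 fell. EXPA6 (AT2G28950) had 8.32, 10.6 and 13.2 CPM in priming and 28.7, 21.0 and 37.8 CPM in control (log2 -1.45 ± 0.20 SE). Of 27 xyloglucan endotransglucosylases, which cut and rejoin wall polymers, 8 fell and 5 rose, with 3 rising without priming replicate 1 or control replicate 2, and on library totals 16 fell and 0 rose. TCH4 (AT5G57560), a touch-induced member, had 111, 53.4 and 54.1 CPM in priming and 20.9, 19.1 and 32.8 CPM in control, highest in priming replicate 1 (log2 1.58 ± 0.46 SE), and it was not called on library totals or without priming replicate 1 or control replicate 1 or 2. Of 48 extensins, structural wall proteins, 12 fell and 11 rose, with 7 rising without control replicate 3 and 5 when only the priming and control libraries were fitted, and on library totals 34 fell and 3 rose. Of 71 pectin methylesterases and their inhibitors, which set the stiffness of pectin, 38 fell and 4 rose, with 57 falling and 2 rising on library totals. AT3G49330, of the inhibitor family, had 0.296, 0.272 and 0.313 CPM in priming and 5.55, 4.58 and 7.90 CPM in control (log2 -4.36 ± 0.27 SE). Arabinogalactan and fasciclin-like proteins split, with 19 falling and 14 rising of 56, and on library totals 34 fell and 7 rose. FLA8 (AT2G45470) had 5.20, 7.08 and 6.95 CPM in priming and 24.7, 22.8 and 38.7 CPM in control (log2 -2.16 ± 0.21 SE). AGP1 (AT5G64310) had 79.9, 66.8 and 70.4 CPM in priming and 6.64, 5.82 and 8.53 CPM in control (log2 3.37 ± 0.31 SE).

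Transcripts for the surface barriers of root and shoot fell more often than they rose, with 1 uneven control library. Of 20 loci of suberin and the Casparian strip, the seals of root tissue, 10 fell and 1 rose, and on library totals 19 fell and 0 rose. GPAT5 (AT3G11430), a suberin acyltransferase, had 6.60, 4.86 and 4.48 CPM in priming and 21.0, 22.9 and 44.6 CPM in control. ABCG6 (AT5G13580), a suberin exporter, had 51.2, 51.3 and 42.1 CPM in priming and 99.0, 91.3 and 227 CPM in control. Control replicate 3 was the highest of the controls in both, and each priming library lay below every control library, at log2 -2.47 ± 0.31 and -1.53 ± 0.30 (SE). LAC12 (AT5G05390), a laccase and among the largest decreases, had 0.197, 0.856 and 1.11 CPM in priming and 3.50, 3.08 and 28.1 CPM in control, and its log2 change of -4.00 ± 1.02 (SE) was -2.20 without control replicate 3. Of 14 cutin and wax loci 10 fell and 1 rose, and on library totals 13 fell and 0 rose. CYP86A8 (AT2G45970), which oxidises fatty acids for cutin, had 11.3, 10.8 and 10.6 CPM in priming and 42.8, 42.4 and 72.1 CPM in control (log2 -2.27 ± 0.17 SE). Beside these classes, the 6 epidermis markers summed to 199.8 to 264 CPM of library totals in priming and 569 to 676 CPM in control. The 7 root endodermis markers summed to 61.9 to 104 CPM in priming and 118 to 160 CPM in control, and the 6 guard cell markers to 10.8 to 19.2 CPM in priming and 34.8 to 57.7 CPM in control. The log2 ratios of these sums were -1.37 for epidermis, -0.74 for root endodermis and -1.46 for guard cells. Those of phloem and xylem markers were -0.98 and -0.79, and the median nuclear locus stood at -0.87. On the TMM scale 5 of 6 epidermis and 2 of 6 guard cell markers fell and 0 rose. Of the 7 root endodermis markers 1 fell and 1 rose there. The part of these markers in the results was not tested.

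Among the class lists and families, leucine-rich repeat receptor kinases lost the most share of counts. These receptors sense hormones, peptides and microbes at the cell surface. Of 166 leucine-rich repeat receptor kinases 117 fell and 4 rose (median log2 -0.79), with 156 falling and 2 rising on library totals, and their summed share was 0.158% ± 0.0227 in priming and 0.519% ± 0.0220 in control (SD, n = 3 each). AT3G28040 of this family had 9.90, 15.1 and 15.8 CPM in priming and 73.3, 74.7 and 79.9 CPM in control. BAM3 (AT4G20270), a receptor kinase of phloem and meristem development, had 11.9, 13.7 and 15.1 CPM in priming and 61.1, 62.9 and 66.7 CPM in control. TMM (AT1G80080), a receptor-like protein that spaces stomata, had 3.16, 3.98 and 3.61 CPM in priming and 19.8, 18.4 and 15.5 CPM in control. All 3 were lower in every priming library, at log2 -2.48 ± 0.14, -2.22 ± 0.10 and -2.31 ± 0.13 (SE). Of 38 cysteine-rich receptor kinases 28 fell and 0 rose, with 1 rising without priming replicate 3 or control replicate 1, and on library totals 35 fell and 0 rose. CRK25 (AT4G05200) fell by 1.73 ± 0.11 on the log2 scale (SE).

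Immune transcripts also fell more often than they rose. Of 16 immune receptors and kinases 9 fell and 2 rose, with 1 rising without priming replicate 3 or control replicate 1 or 2, and on library totals all 16 fell. FLS2 (AT5G46330), the receptor of bacterial flagellin, had 4.61, 5.09 and 6.82 CPM in priming and 11.6, 13.9 and 15.1 CPM in control. FRK1 (AT2G19190), a kinase gene that flagellin induces, had 3.92, 5.05 and 4.53 CPM in priming and 12.7, 12.9 and 12.2 CPM in control. The groups of both were apart, at log2 -1.31 ± 0.25 and -1.48 ± 0.13 (SE). Of 144 intracellular NLR resistance proteins 95 fell and 13 rose, with 131 falling and 3 rising on library totals. AT5G51630 was among those that rose, with 105, 98.3 and 102 CPM in priming and 19.4, 21.2 and 19.8 CPM in control (log2 2.34 ± 0.10 SE). Of 15 salicylic acid loci 6 fell and 3 rose, and on library totals 10 fell and 0 rose. CBP60G (AT5G26920), a factor that switches on salicylic acid synthesis, had 23.2, 14.5 and 15.5 CPM in priming and 69.8, 45.8 and 55.1 CPM in control (log2 -1.68 ± 0.19 SE).

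Early wound and touch genes were mixed, with 10 of 25 rising and 4 falling on the TMM scale and 4 rising and 11 falling on library totals. Without priming replicate 1 or control replicate 2 only 6 rose. STZ (AT1G27730), a zinc finger repressor, had 109, 75.7 and 83.1 CPM in priming and 18.7, 13.3 and 23.9 CPM in control (log2 2.26 ± 0.35 SE). CBF2 (AT4G25470), better known from cold responses, had 10.6, 6.61 and 8.37 CPM in priming and 1.18, 0.662 and 2.17 CPM in control (log2 2.67 ± 0.52 SE). Its tandem neighbours CBF1 (AT4G25490) and DREB1A (AT4G25480) rose by log2 3.39 ± 0.51 and 3.09 ± 0.43 (SE).

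In chemical defence the lists differed. Of 17 glucosinolate loci 8 fell and 2 rose, with 4 rising without priming replicate 2, and on library totals 13 fell and 0 rose. MYB34 (AT5G60890), which switches on indole glucosinolates, had 1.94, 1.66 and 1.40 CPM in priming and 8.90, 9.42 and 8.77 CPM in control. CYP83B1 (AT4G31500), an enzyme of that branch, had 28.7, 19.4 and 21.3 CPM in priming and 69.4, 54.8 and 58.8 CPM in control. Both were lower in all priming libraries, at log2 -2.43 ± 0.13 and -1.40 ± 0.15 (SE). Of 12 loci of myrosinases and the endoplasmic reticulum body, whose enzymes split such compounds, 7 fell and 2 rose, and on library totals 11 fell and 0 rose. BGLU21 (AT1G66270), a beta-glucosidase of that body, had 14.5, 19.0 and 13.2 CPM in priming and 162, 146 and 142 CPM in control (log2 -3.26 ± 0.12 SE). Of 21 phenylpropanoid and lignin loci 8 rose and 4 fell, with 7 falling without priming replicate 1, and on library totals 0 rose and 16 fell. CAD5 (AT4G34230), which makes lignin alcohols, rose by log2 1.11 ± 0.16 (SE), but not on library totals. Of 202 cytochrome P450 loci 86 fell and 18 rose, with 164 falling and 6 rising on library totals.

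Nutrient lists had members that moved each way. Of the nutrient lists, 2 of 14 nitrogen loci fell and 4 rose, 6 of 15 phosphate and sulfate loci fell and 3 rose, and 6 of 28 iron loci fell and 5 rose. Falling nitrogen loci numbered 4 without priming replicate 1, without control replicate 3 or with harvest date as a replicate block. On library totals 8, 12 and 20 of the 3 lists fell. AMT1;3 (AT3G24300), an ammonium transporter of roots, had 53.7, 49.9 and 49.5 CPM in priming and 147, 121 and 112 CPM in control. SULTR1;2 (AT1G78000), which takes up sulfate, had 15.8, 23.2 and 25.1 CPM in priming and 48.2, 50.3 and 48.1 CPM in control. PHT1;4 (AT2G38940), a phosphate transporter, had 11.2, 9.58 and 8.53 CPM in priming and 21.7, 19.6 and 21.5 CPM in control. All priming libraries lay below all control libraries, at log2 -1.31 ± 0.10, -1.19 ± 0.13 and -1.10 ± 0.10 (SE). The ferritins FER3 (AT3G56090) and FER4 (AT2G40300), which store iron, rose by log2 1.28 ± 0.11 and 1.33 ± 0.09 (SE). GS2 (AT5G35630), the plastid glutamine synthetase, rose by log2 1.10 ± 0.14 (SE), but on library totals the change was 0.22 and was not called. LSU2 (AT5G24660), a marker of low sulfur, rose by log2 3.27 ± 0.19 (SE). The 6 root hair markers summed to 22.1 to 30.1 CPM of library totals in priming and 59.3 to 65.8 CPM in control. That was a log2 ratio of -1.33, and on the TMM scale 1 of the 6 fell and 0 rose. The part of these markers in the falls of root transporters was not tested. Aquaporins held 0.298% ± 0.0256 of counts in priming and 0.542% ± 0.0947 in control (SD, n = 3 each), with 5 of 19 rising and 2 falling on the TMM scale and 17 falling on library totals. Without control replicate 2 the aquaporins were 3 rising and 5 falling, and without priming replicate 1 only 3 rose.

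**Figure D5:**
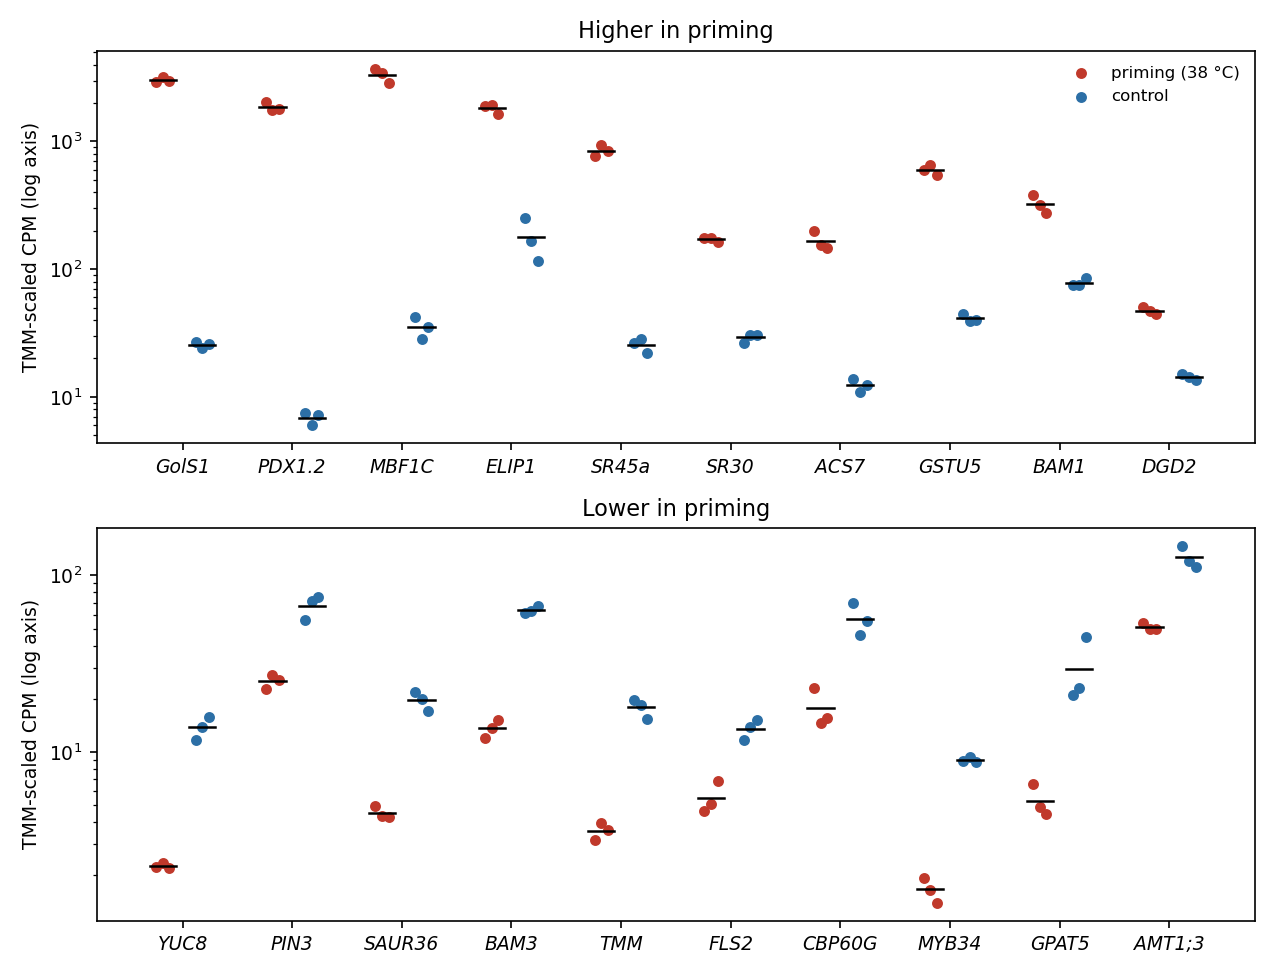
TMM-scaled CPM (log axis) of 10 genes higher and 10 genes lower in priming (red) than in control (blue). Points are libraries and lines are means of 3. In each gene all priming libraries lie on one side of all control libraries, which was a condition for choosing all of them except ELIP1. GolS1, for example, had a mean of 3047 CPM in priming and 25.6 CPM in control.

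Among tested loci, those next to strongly raised ones were counted higher more often. Only loci that passed the filter on low counts were included. A next locus near 0 in control could pass it through the heated libraries alone, and the part of this in the shares was not tested. Among loci whose gene starts within 1000 bases after the end of a locus with a log2 change of 5 and over, on the same strand, 24 of 34 rose (70.6%; median log2 1.06). After loci that changed by less than 1 log2 unit, 33.4% of 4370 rose (median 0.13). On the opposite strand the shares were 21 of 38 and 26.9% of 2863. Over 1000 bases away on the same strand 6 of 21 rose (28.6%), against 17.3% of 2167 after loci that changed by less than 1. At that distance on the opposite strand 3 of 7 rose (42.9%), against 20.6% of 819. Examples chosen after the values were seen are AT3G25240 after ROF1 (AT3G25230), with 3.38 ± 0.566 CPM in priming and 0.0162 ± 0.0167 CPM in control, and RABA2b (AT1G07410) after AT1G07400, with 13.8 ± 1.25 CPM in priming and 1.74 ± 0.297 CPM in control (SD, n = 3 each). Heat chaperones were kept in these counts, and some of the next loci are themselves chaperones, such as AT5G48570 after AT5G48575. Loci that face each other, such as SR45a and STP2 (AT1G07340), were counted in both directions. The strand setting of the counting was not given in the sources used here.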

How the data were processed

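Each library came as a text table with 1 line per reference sequence, 87128 lines, holding the deposited raw counts of aligned reads; the layout is that of samtools idxstats. Bowtie2, SAMtools, DESeq2 and build TAIR10 are named in the submitters' processing notes; their versions, their roles and any strand setting were not stated there. Ribosomal RNA and unplaced reads were left out. The 6 compared libraries had at least 37112430 nuclear counts each.

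edgeR 4.0.16 in R 4.3.3 fitted all 12 libraries with group means (TMM factors, filterByExpr at a minimum count of 10, robust quasi-likelihood test, Benjamini-Hochberg adjustment at 0.05 over 26161 sequences; biological coefficient of variation 0.143). A standard error is the absolute log2 change divided by the square root of F. In simulated data 96.5% of 200 genes changed 2-fold were called over 24489 sequences. All groups were drawn there from control means with only these genes changed, so the simulation cannot speak to a shift of most transcripts. Shares were compared by exact permutation of libraries, without regard to harvest date. DESeq2 1.42.0, other scalings, filters, left-out libraries and harvest date as a block were alternatives. Replicates differed beyond counting noise (chi-square per degree of freedom 10.4 to 76.2). The labels tie each replicate number to 1 harvest date, so numbers pair the libraries. Deviations of same-numbered libraries correlated at 0.318, 0.112 and 0.0753, and those of differently numbered libraries at -0.223 to 0.115.

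The 31 class lists (564 members) and 41 families (4772 members, from RefSeq product text) were chosen with earlier results of these data known. Named genes are up to 4 called members per list with the largest change and no overlap between groups, the 10 largest gains and losses of share, and the 20 largest changes each way among other symbols at 5 CPM or more. The 20 largest changes and the family examples also had to show no overlap between groups. Family examples, the promoter search and the neighbour counts were added after seeing the data. Except Hsp70-15, loci were left out of the text where 20% or more of their length overlaps another locus or 20% or more of their 31-base words are shared with a copy. Smaller overlaps were kept, up to 19.0% in PDX1.2, 18.5% in CRK25, 18.1% in MBF1C, 13.0% in AT5G51630 and 12.0% in AT3G07090; reads of such a locus and its partner cannot be fully told apart. Coordinates and sequences are RefSeq's TAIR10.1. Tables and figures were made in Python (3.11.15), with pandas 2.3.3, numpy 2.4.6 and matplotlib 3.10.9.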

Additional observations from a re-analysis of the deposited data

How the results depend on the processing

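With no scaling factor, calls were 1244 rising and 18142 falling against 6990 and 7079 on the TMM scale, class-list members 21 and 390 against 181 and 156, and family members 155 and 2864 against 943 and 1289. The other scalings, filters and DESeq2 stayed within 1.5 times of these counts. With the priming and control libraries alone, calls were 6127 rising and 6224 falling. With harvest date as a replicate block, which the labels' pairing calls for, calls were 7040 rising and 7122 falling, class-list members 194 and 163, and family members 957 and 1304. Leaving out 1 library gave 6160 to 6737 rising and 6533 to 6928 falling calls, 155 to 182 and 145 to 153 class-list members, and 840 to 920 and 1193 to 1303 family members. The median nuclear log2 change was -0.74 over nuclear counts only, -0.35 over nuclear counts without the chaperones and -0.74 over loci of at least 10 CPM, and -0.96 to -0.78 without 1 library; the totals differ by construction. The noncoding share, -0.0304 points, was 0.0449 without psbA counts and -0.186 to 0.169 without 1 library; the cause was not tested. Counts give shares and no amounts per cell, and with 3 libraries a group the exact tests cannot go below 0.1. The 120 genes checked singly were those chosen for the text. Other genes picked by the same rules changed sign on library totals. Among them were PAB2 (AT4G34110), from log2 0.27 to -0.60, and PIP3 (AT4G35100), from log2 0.55 to -0.33. RBCS1A (AT1G67090) was another, from log2 0.35 to -0.52. Of the 120 chosen genes none changed sign under these alternatives, and 9 were no longer called on library totals (TCH4, DGD1, NCED3, JAZ10, SBPASE, UBP1B, ATG8B, CAD5 and GS2). One more of them, AT4G33010, not described above (log2 -0.35), was not called with the priming and control libraries alone or without priming replicate 2 or 3 or control replicate 1 or 2, at adjusted p from 0.0689 to 0.128 in edgeR. TCH4 (AT5G57560) was not called without priming replicate 1 or control replicate 1 or 2, at adjusted p from 0.0555 to 0.0653 in edgeR. LAC12 has no adjusted p from DESeq2, so 119 genes were compared there.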
